A study of Drosophila melanogaster with 2 samples.

Results

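In chromatin of whole Drosophila melanogaster embryos, 1037 of 7001 binding sites of the zinc-finger protein Sob had their summit in an intron, close to but outside a promoter. The members were chosen by position alone. Their summit lay more than 1000 bp from every annotated transcription start site (TSS), inside a gene but in none of its exons, and at most 5000 bp from the closest protein-coding TSS. They made up 14.8% of the peaks on the 6 main chromosome arms (95% Wilson interval 14.0 to 15.7, which covers counting error only). The study comprised 1 group with 2 biological replicates of embryos aged 0 to 24 h, from flies with an insertion that expressed Sob fused to enhanced green fluorescent protein (eGFP). Both replicates carried the fusion, and chromatin was precipitated with an antibody against the tag. No other genotype, treatment or time was among the samples, and whole embryos of this age range mix all tissues and stages. The signal of a peak is the authors' value for the list made from both replicates, in units with no stated scale, and it has no error of its own. The number of reads behind the lists is unknown. P-values below treat peaks as the units and measure the spread over peaks, not over animals.

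Sob belongs to the odd-skipped family of zinc-finger proteins, with Odd, Drm and Bowl, which act in segmentation, gut development and the formation of leg joints. The first introns of Drosophila genes commonly hold enhancers, and long genes often have a second promoter inside them, so that an intron can lie downstream of one start site and upstream of another. Forkhead proteins, GAGA factor, Zelda and homeodomain proteins are among the factors known to bind such elements in embryos.

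Windows at strong summits are shown here for their base composition and for the strings they hold. They are shown as 101 bases centred on the summit, from the RefSeq release 6 genome, on the plus strand. They were picked to show the strings, so 7 of these 8 hold a marked string, whereas 10 of the 25 strongest members (40.0%) held any of the strings marked here and 8% the forkhead string. Capitals mark TGTTTAC, the string of forkhead proteins, or one of the 4 called strings, which are AATATTA, further GTAAATA, then ACAGTGG, and last ATATTAA, on either strand. Of the 5 strongest members, 4 are shown, which are CG11050 (chr2L:6612662-6612762), the site of highest signal in the whole list, Tlk (chrX:3742177-3742277), which encodes the Tousled-like kinase, Trl (chr3L:14759458-14759558), which encodes GAGA factor, and CG3726 (chrX:5918879-5918979). The others, the strongest among the remaining members with a given string, are Csk (chr3R:11649626-11649726), which encodes a kinase that inhibits Src, Btk (chr2L:8292551-8292651), a tyrosine kinase gene, upSET (chr3L:14005036-14005136), a gene of a SET-domain chromatin protein, and CHES-1-like (chrX:7698359-7698459), a gene of a forkhead-domain protein.
CG11050: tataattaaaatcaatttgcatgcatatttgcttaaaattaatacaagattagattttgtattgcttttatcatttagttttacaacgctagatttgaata
Tlk: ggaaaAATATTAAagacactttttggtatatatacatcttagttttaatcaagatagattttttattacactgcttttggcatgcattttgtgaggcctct
Trl: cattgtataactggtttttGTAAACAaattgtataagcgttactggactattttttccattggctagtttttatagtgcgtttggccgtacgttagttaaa
CG3726: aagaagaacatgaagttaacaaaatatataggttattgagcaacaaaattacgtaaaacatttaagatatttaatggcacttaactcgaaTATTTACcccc
Csk: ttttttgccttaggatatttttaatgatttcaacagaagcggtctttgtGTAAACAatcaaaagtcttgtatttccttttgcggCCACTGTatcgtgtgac
Btk: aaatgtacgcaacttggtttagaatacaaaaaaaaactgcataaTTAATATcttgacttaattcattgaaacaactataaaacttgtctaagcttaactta
upSET: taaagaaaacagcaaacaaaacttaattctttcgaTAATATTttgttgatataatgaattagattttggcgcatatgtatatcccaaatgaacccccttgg
CHES-1-like: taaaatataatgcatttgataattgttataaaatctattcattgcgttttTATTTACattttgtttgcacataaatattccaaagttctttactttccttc

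G and C made up 20.8% of the CG11050 window, 28.7% at Tlk, 32.7% at Trl, 27.7% at CG3726, 35.6% at Csk, 24.8% at Btk, 29.7% at upSET and 21.8% at CHES-1-like. The Trl window held the forkhead string on its minus strand, left of the summit, and that of Csk held both the forkhead string and ACAGTGG. The mean over the 25 strongest members was 29.2% ± 8.67 G and C (SD, n = 25 summits), while windows of the same width 500 bp away held 38.3% ± 9.82. Among these 25 the summit was lower than its own flank in 21 and higher in 4, and the window of CG8745 held 66.3%.

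The strongest member was also the strongest peak of the whole list. It had a signal of 4455 and lay in the second intron of CG11050 (FBgn0031836; 140 bp, 2L, 6612641 to 6612780), 1025 bp downstream of the nearest TSS. The peak itself, from 6612432 to 6612990, was wider than the intron. Its signal was 2062 in replicate 1, at place 2 of that replicate's ranked list, and 2379 in replicate 2, at place 1. The promoter of CG11050, or of another gene that holds this summit, also carried a peak, with a signal of 313.1.

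Next in order stood CG32772 with a signal of 1969, which was 1063 in replicate 1 and 887 in replicate 2. Tlk (FBgn0283657; X, 3742040 to 3742392) had 1680.4 at its strongest member, with 872 in replicate 1 and 804 in replicate 2. Trl (FBgn0013263; 3L, 14759315 to 14759703) had 1679, with 837 in replicate 1 and 835 in replicate 2. These members lay downstream of a start site of their own gene, at 1268 bp in CG32772, 2330 bp in Tlk and 1541 bp in Trl. In each of them the values of both replicates were close to each other in size.

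Further down were CG3726 at 1617, norpA, the phospholipase C gene of phototransduction, at 1396, CG12769 at 1376, the transcription factor gene NFAT at 1131 and CG9837 at 1110.2. The Ras-pathway kinase gene Raf had 872, the cGMP-dependent kinase gene for had 848, Csk 826, Btk 825 and the MAP kinase kinase kinase gene Mekk1 694. CG34417 had a signal of 688, a second member in Tlk 663, CG8745 652 and edl, which encodes an antagonist of the ETS protein Yan, 642. The last of the 25 were upSET at 627, the EGFR inhibitor gene aos at 620.1, the zinc-finger homeodomain gene zfh1 at 614, CHES-1-like at 610.1, the dystrophin gene Dys at 609.5, the fatty acid elongase gene Baldspot at 597 and the moesin gene Moe at 591. All 25 were in both replicates' own thresholded lists. Their places in the ranked lists reached down to 291 in replicate 1 and 357 in replicate 2. Of the 25, 10 were on the X chromosome and 19 had a peak at a promoter of a gene that holds the summit as well.

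Over all members the signal ranged from 2.17 to 4455, with quartiles of 95.1 and 195.4 and a median of 125.5, against a median of 133.4 over the whole list. In the 250 strongest peaks of the list were 19 members. A signal under 20 was given to 28 members. Each of these 28 shared bases with another peak of the list, in 27 cases with a stronger one, and 7 of them were counted as present in both replicates' lists because those lists' peaks overlapped them. In all, 114 members (11.0%) overlapped another peak.

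The sites became sparser with distance from the start site, while their median signal showed no steady fall. Per megabase of intron that the rule admits, 83.1 summits lay at 1000 to 1500 bp, 68.1 at 1500 to 2000 bp and 56.0 at 2000 to 2500 bp. The density was 39.9 per megabase at 4000 to 4500 bp and 49.2 at 4500 to 5000 bp. The median signal was 130.0 in the nearest of these bins and 137.1 in the farthest, with a lowest median of 117.8 at 2000 to 2500 bp. The share present in both replicates' lists was 40.1% in the nearest bin, 28.6% at 2500 to 3000 bp and 42.1% in the farthest. These bins describe the rule's own measure and were not tested.

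**Figure D1:**
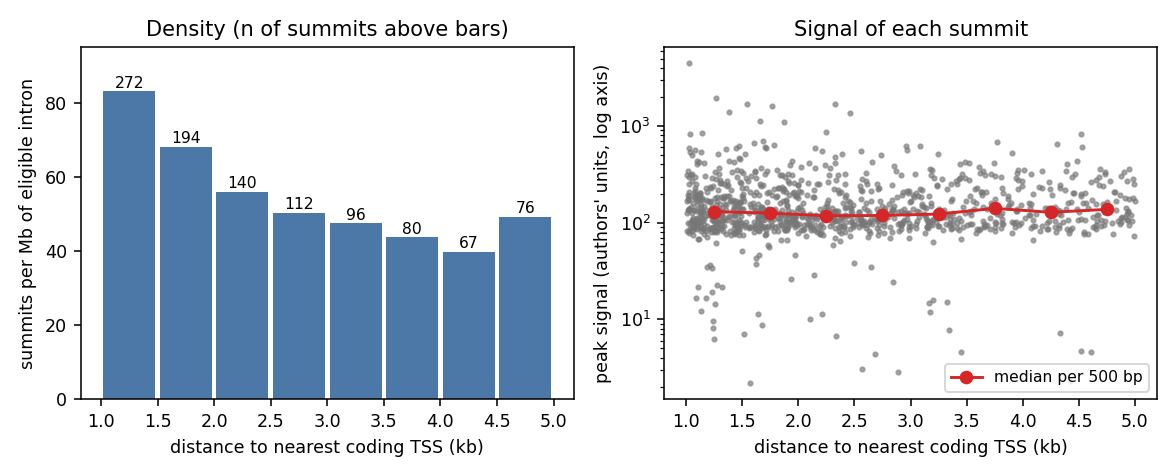
Left, summits per megabase of eligible intron (bars) against the distance to the nearest protein-coding TSS in kb, in bins of 500 bp, with the number of summits above each bar. Right, the signal of each of the 1037 summits on a log axis against the same distance, with the median per bin in red. Density fell from 83.1 to 39.9 per megabase before rising to 49.2, and the medians stayed between 117.8 and 140.4.

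Neither limit of the rule coincided with a step in signal. The 70 members within 1000 to 1100 bp had a median signal of 139.8. The 82 promoter summits at 900 to 1000 bp that lay inside a gene and in no exon had 137.6. The 76 members at 4500 to 5000 bp had a median of 137.1, and the 49 intronic summits at 5000 to 5500 bp had 127.8.

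Introns within 5000 bp of a start site held 57.8 summits per megabase, 1.11 times the genome's mean, and cover 17.9 Mb or 13.4% of it. Introns farther away held 24.1, intergenic sequence 18.3 and the promoters 139.8 per megabase. By position, 652 members (62.9%) lay downstream of a start site of their own gene, with a median signal of 125.7. Another 220 (21.2%) lay upstream of an internal start site of their own gene, with a median of 126.2, and for the remaining 165 (15.9%) the nearest start site belonged to another gene, with a median of 123.5. The medians of the 3 positions were within 3 units of signal. For 501 members the summit lay in the first intron of every host-gene transcript with an intron over it. Transcripts that start past the summit were left out. For 771 it lay in the first intron of at least 1 transcript. The host introns had a median length of 7905 bp, from 68 to 110416 bp, with quartiles of 3836 and 14689 bp.

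Members were weaker and less often called in both replicates than promoter peaks, and did not differ from far-intron or intergenic peaks past the test's threshold. A signal above the list's median was found in 474 of 1037 members (45.7%, Wilson interval 42.7 to 48.8) and in 2363 of 4414 promoter peaks (53.5%, 52.1 to 55.0). The odds ratio was 0.731 (95% interval 0.636 to 0.839; adjusted p = 2.09e-05, two-sided Fisher's exact test, Benjamini-Hochberg over 7 comparisons). In far introns the share was 43.3%, with an odds ratio of 1.10 (0.906 to 1.34; adjusted p = 0.553, Fisher's exact test). Between genes it was 46.6%, with an odds ratio of 0.965 (0.786 to 1.18; adjusted p = 0.759, Fisher's exact test). The intervals against far introns and intergenic peaks span 1, and the data allow odds ratios anywhere within these bounds. Exonic peaks away from promoters were not among the classes tested. Of these 200 peaks 29.0% were above the list's median, 46 were in both replicates' lists, and their median signal was 102.2. With the own list of replicate 1 in place of the main list, the odds ratio was 1.29 against far introns and 1.28 against intergenic peaks, both with an adjusted p of 0.0462 (Fisher's exact test).

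Replicate 1's own list held 565 members and that of replicate 2 held 597. Of the members, 388 (37.4%, Wilson interval 34.5 to 40.4) were in both, 177 in that of replicate 1 alone, 209 in that of replicate 2 alone, and 263 in neither. Promoter peaks were in both lists in 47.6% of cases, with an odds ratio of 0.658 for the members (0.571 to 0.757; adjusted p = 2.07e-08, Fisher's exact test). Against far introns, with 35.4%, the odds ratio was 1.09 (0.891 to 1.33; adjusted p = 0.553, Fisher's exact test), and against intergenic peaks, with 39.1%, it was 0.930 (0.754 to 1.15; adjusted p = 0.579, Fisher's exact test). Among the 100 strongest members 99 were in both lists, and in the strongest quartile 94.2% were. In the next quartile the share was 43.6%, and in the lower quartiles 4.63% and 7.31%.

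The ranked lists, which are longer, had a peak over 962 member summits in replicate 1 and over 1006 in replicate 2. Across the members found in both, the signals of the replicates had a Spearman correlation of 0.559, against 0.659 over promoters and 0.459 over far introns. This correlation is across sites that share their libraries and the control, and is given as a description. Members without a peak in a ranked list reached a main-list signal of 257.2 for replicate 1 and 406.0 for replicate 2. On the X chromosome 148 of the 230 members were in replicate 1's list and 128 in that of replicate 2, while on each of the other large arms replicate 2's list held more of them. Chromosome 4 held 1 member, present in neither list.

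**Figure D2:**
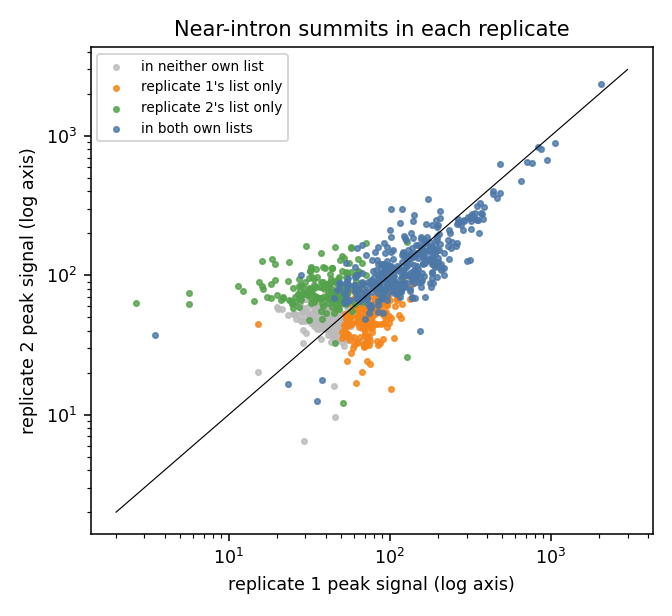
Signal of the members in the ranked list of replicate 1 (horizontal, log axis) and of replicate 2 (vertical, log axis), coloured by presence in the replicates' own thresholded lists, with the line of equal values. The strongest members, up to 2062 and 2379, lie along the line, and those present in 1 list alone lie to either side of it at low signal.

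A larger share of members than of far-intron sites lay in a gene whose promoter was itself bound. A peak at a promoter of a protein-coding gene that holds the summit was found for 757 members (73.0%, Wilson interval 70.2 to 75.6). It was found for 494 of 734 far-intron summits (67.3%, 63.8 to 70.6). Where several genes held a summit, a bound promoter of any of them counted. The odds ratio was 1.31 (95% interval 1.06 to 1.62; adjusted p = 0.0256, Fisher's exact test). Members of 1 gene share their promoter, and with the strongest member of each host gene alone the odds ratio was 1.26 and the adjusted p 0.235 (Fisher's exact test). The call was also lost with an exclusion of 2000 bp around TSSs and with near limits of 3000 or 10000 bp, and the adjusted p ranged from 1.44e-10 to 0.698 over the alternatives (Fisher's exact test). By position the share was 70.4% downstream of the own start site, 85.9% upstream of an internal one and 66.1% where another gene's start site was nearest. Of the 757 members, 246 (32.5%) had a higher signal than the strongest promoter peak of the genes that hold them, and the median ratio of member to promoter signal was 0.693.

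The members lay in 659 protein-coding genes, which is 9.62% of the 6850 protein-coding genes with any intron sequence that the rule admits. The share of such genes with a member rose with the length of that sequence, from 0.646% of genes with under 1000 bp, through 25.7% of those with 4000 to 8000 bp, to 50.3% of those with more than 16000 bp. Of the host genes, 433 had 1 member, 149 had 2, 46 had 3 and 31 had 4 or more.

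The genes with most members were CG3764, CHES-1-like, Tlk and tna, with 9 each, and shn, with 8. Peaks that overlap count as separate members. This holds in tna for 10855706 to 10856085 and 10855910 to 10856289, and in CG3764 for 17009969 to 17010348 and 17010172 to 17010551. In Tlk (X, 3720007 to 3789770) the signals were 15.2, 84.7, 92.8, 94.5, 124.3, 188.0, 370.6, 663 and 1680.4, with 5 of 9 in both replicates' lists. Its weakest member overlapped a stronger peak, and its strongest promoter peak had 180.2, below 4 of its members. CHES-1-like (X, 7682338 to 7709385) ranged from 108.0 to 610.1, with 4 of 9 in both lists and 460.4 at the promoter. In CG3764 (3L, 16994717 to 17012565) all 9 were below the promoter's 237.6, from 79.9 to 189.5, and 1 of them was in both lists. In tna, which encodes a protein that interacts genetically with Brahma, they ranged from 72.1 to 202.3, and in shn, which encodes a zinc-finger protein of the Dpp pathway, from 89.4 to 287.0. The 5 genes thus differed in whether their intronic sites exceeded their promoter peak.

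CG1677, CG32264, Mob2, RhoGAP19D and bun, a TSC22-family gene, had 6 members each. In RhoGAP19D 2 of the 6, at 7.26 and 3.07, and in bun 2 of the 6, at 10.2 and 8.80, were peaks of signal under 20 that overlapped a stronger one. NK7.1, dlg1 and Pdp1 had 1 such member each. In CG32264 the strongest had 506.6 against 225.5 at the promoter, whereas in bun none exceeded 94.2 against 293.6 at the promoter. Mef2, the muscle transcription factor gene, NK7.1, apt, atos and ush, which encodes a cofactor of GATA proteins, had 5 each. In Mef2 the strongest had 296.4 against 110.6 at the promoter, and in atos 380.1 against 121.2. With 4 members each followed Abd-B, CG13917, CG14434, CG9328, the cell-cycle gene E2f1, Evi5, the Wnt inhibitor gene Notum, Nuak, Pdp1, bru2, cnc, dlg1, the Notch coactivator gene mam, tou, trio and wake. Abd-B, E2f1 and Nuak had no promoter peak in the list. All 4 members of Evi5, between 156.8 and 353.2, were in both lists. Mob2, Abd-B, E2f1 and Notum also have members with a signal above 20 whose peaks overlap each other.

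**Figure D3:**
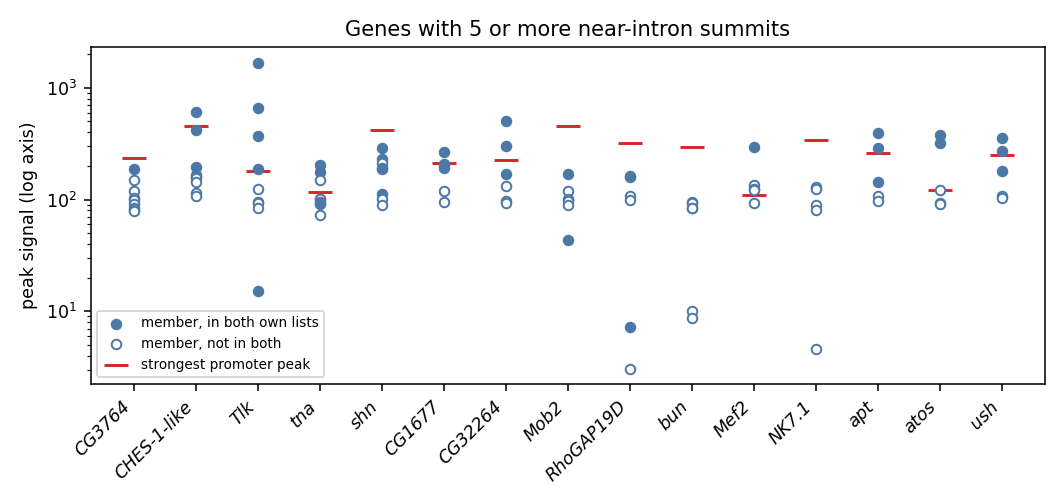
Signal on a log axis of each member (points) in the 15 genes with 5 or more members, and of the strongest peak at a promoter of the same gene (red bar). Filled points were in both replicates' own lists. Members of Tlk span 15.2 to 1680.4 on either side of the promoter peak of 180.2, and those of CG3764 and bun lie below theirs.

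Of 17 lists of genes, 15 had at least 1 host among the members with admissible introns. The lists are compared with the background of 9.62% by counts alone, and since introns differ in length between lists, the median admissible length per gene is given beside each count. Genes of the ecdysone response and of temporal identity hosted members in 8 of 15 (53.3%), with a median admissible length of 11.5 kb. Among them were Hr3 at 312.7, ftz-f1 at 227.4, Eip75B at 173.7 and Eip74EF at 142.6. Hr3, ftz-f1 and Eip75B encode nuclear receptors. This share (Wilson interval 30.1 to 75.2) was above 9.62%, and of all protein-coding genes with 8000 to 16000 bp of admissible intron 36.9% were hosts. The interval covers 36.9%.

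Notch and EGFR signalling had 9 hosts of 25 (36.0%, median 4.13 kb), led by Raf at 872, aos at 620.1, mam at 406.0 and the ETS repressor gene aop at 370.0. The summit in mam had no peak over it in the ranked list of replicate 2. Wnt and Dpp signalling had 7 of 22 (31.8%, 7.52 kb), led by the receptor gene wit at 435.5, the Dpp antagonist gene sog at 315.2, shn at 287.0 and the Wnt coreceptor gene arr at 240.5. Hedgehog, JAK/STAT and Hippo signalling had 6 of 24 (25%, 2.54 kb), with Socs36E at 214.9, the kinase gene wts at 195.4, kibra at 182.6 and boi at 165.8. Of all protein-coding genes, 13.5% with 2000 to 4000 bp of admissible intron and 25.7% with 4000 to 8000 bp were hosts. Axon guidance and adhesion genes had 10 of 30 (33.3%, 5.37 kb), led by sli at 301.1, Ptp10D at 248.1, NetB at 198.8 and Ten-a at 188.4. RNA-binding proteins had 9 of 23 (39.1%, 14.4 kb), led by shep at 309.6, Rbfox1 at 219.4, pum at 169.0 and heph at 162.4. That share (Wilson interval 22.2 to 59.2) was close to the 36.9% of all protein-coding genes with 8000 to 16000 bp. Muscle genes had 6 of 18 (33.3%, 4.55 kb), led by Mef2 at 296.4, kirre at 279.0, Zasp66 at 204.2 and mbl at 108.1. The Wilson intervals were 19.2 to 51.2 for axon guidance and adhesion genes and 16.3 to 56.3 for muscle genes. Both cover the 25.7% of genes with 4000 to 8000 bp.

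Of segmentation and homeotic genes, 2 of 20 (10%) were hosts, a share close to the background, Abd-B with 230.3 and Antp with 129.1, and of the organ and appendage selector genes 1 of 27 (3.70%, Wilson interval 0.657 to 18.3), byn with 102.9. Their median admissible lengths were 3.75 and 4.13 kb. Neural transcription factors, with a median of 6.65 kb, had 4 of 17 (23.5%, 9.56 to 47.3). They were zfh1 at 614, grh at 254.1, ttk at 96.5 and pros at 86.8. Chromatin regulators, with 0.764 kb, had 2 of 21 (9.52%, 2.65 to 28.9), Trl and ph-p, the latter at 330.9. In the odd-skipped family, with a median of 4 kb, 1 of 3 genes was a host. It was bowl, with an intronic member of 217.4 (2L, 3776605 to 3776984), at 104.5 in replicate 1 and 103.8 in replicate 2. That summit lay at −2143 bp from the nearest protein-coding start site, upstream of that site but inside the gene. Ion channel and synaptic genes, with 5.30 kb, had 3 of 22 (13.6%, 4.75 to 33.3), with Shab at 158.7, dlg1 at 158.5 and Shal at 86.4. Metabolic genes, with 1.75 kb, had 3 of 12 (25%, 8.89 to 53.2), with Lsd-2 at 403.8, bmm at 371.4 and Hnf4 at 112.1. Among all protein-coding genes, 0.646% with under 1000 bp of admissible intron were hosts. That share was 8.97% with 1000 to 2000 bp, 13.5% with 2000 to 4000 bp and 25.7% with 4000 to 8000 bp. Neither cytoplasmic ribosomal protein genes, with 0 of 6, nor odorant and gustatory receptor genes, with 0 of 73, hosted a member, and their median admissible lengths were 0.189 and 0.097 kb. Among the members named from the gene lists, those of Antp, ttk, pros and Shal were in neither replicate's list. Those of Eip74EF, mam, boi, heph and Shab were in replicate 1's list alone. The named members of Eip75B, byn, mbl, dlg1 and Hnf4 were in that of replicate 2 alone.

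The bases under the summits were lower in G and C than those beside them, and the more so the stronger the peak. The 101 bases centred on the summit held 37.1% ± 10.2 G and C (SD over 1037 summits), and the windows 500 bp away 39.8% ± 9.33. The summit was lower in 601 members and higher in 402 (exact sign test, two-sided, p = 3.56e-10). In the strongest quartile the summit held 32.4% against 40.3% in the flank, in the second 34.2% against 40.8%, and in the third 38.8% against 39.2%. In the weakest quartile the order was the opposite, with 43.1% against 38.8%, and the summit was lower in 101 members and higher in 152. Peaks of the lower 3 quartiles had a median width of 380 bp and those of the strongest quartile 233 bp. Far-intron summits held 36.6% ± 9.87 and promoter summits 40.3% ± 11.3.

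**Figure D4:**
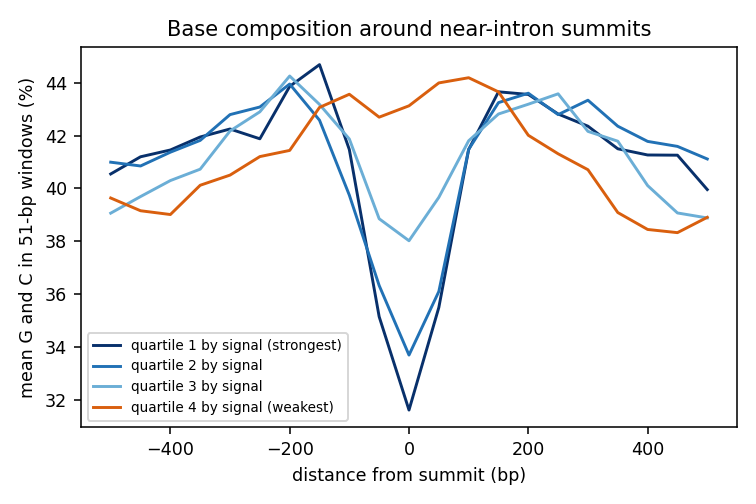
Mean share of G and C in 51-bp windows (vertical, percent; the axis does not start at 0) against the distance from the summit in bp, for the 4 quartiles of the members by signal. The strongest quartile dips to 31.6% at the summit between shoulders of 44.7% and 43.7% at 150 bp on either side, and the weakest has 43.1% at the summit.

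Among 19 known motifs, the forkhead string was the one that passed the test between summits and flanks. TGTTTAC lay within 50 bp of 60 member summits, or 5.79% (Wilson interval 4.52 to 7.38), and of 27 flank centres, or 2.60%. The adjusted p was 0.00603 (exact McNemar test, two-sided, Benjamini-Hochberg over 19), and this 1 call is 5.26% of the motifs tested. Without replicate 2 the adjusted p was 0.491 (exact McNemar test), and over the alternatives it ranged from 8.24e-06 to 0.582. The call also depended on the family of tests used for the adjustment. Among all strings of 7 bases, TGTTTAC had the same counts but was not called (adjusted p = 0.217, exact McNemar test). Its share was 3.35% at promoter summits, 2.27% between genes and 4.09% in far introns. Against far introns the odds ratio was 1.44 (95% interval 0.904 to 2.34; adjusted p = 0.439, Fisher's exact test). None of the 19 motifs, or 0%, differed between near and far introns after adjustment, and at an unadjusted p under 0.05 there was 1, TATAAA (14.8% against 18.4%; Fisher's exact test).

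The listed odd-skipped motif, ACAGTAGC, was at 0 of 1037 summits, which allows a share of up to 0.289% (3 counts, counting error only), and at 1 flank. Its core CAGTAGC was at 7 summits and 5 flanks. GAGAGAG, the string of GAGA factor, was at 16 summits and 30 flanks, and CAGGTAG, that of Zelda, at 6 summits and 4 flanks. None of these differences passed the test. A string near a summit is a description and does not show that a factor binds there.

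Of all 8192 strings of 7 bases, counted on both strands, 4 were called at an adjusted p under 0.05 (exact McNemar test), which is 0.0488%, and all 4 were more common at summits. AATATTA was at 95 summits and 39 flanks (adjusted p = 0.00521, exact McNemar test). GTAAATA was at 75 summits and 30 flanks, with an adjusted p of 0.0224 by the same exact test. ACAGTGG was at 45 summits and 12 flanks, and ATATTAA at 83 summits and 37 flanks, both with an adjusted p of 0.0228 by the exact test. In each replicate's own list, GTAAATA and ACAGTGG were not called, with adjusted p-values from 0.198 to 1 (exact McNemar test). AATATTA and ATATTAA were not called without replicate 1, with 0.273 and 0.592 by the same exact test. At an unadjusted p under 0.05, 200 strings were more common at summits and 216 in flanks. AATATTA and ATATTAA share 6 bases, and both these and GTAAATA consist mostly of A and T, like the summits themselves. ACAGTGG was in 4.34% of member windows (Wilson interval 3.26 to 5.76), 2.18% of far-intron windows, 2.27% of intergenic and 2.33% of promoter windows. In windows centred 100 bp to the left and right of the member summits its share was higher, at 5.69% and 6.08%. Within 25 bp it was at 18 summits and 9 flanks, and within 100 bp at 108 and 33. Against far introns its odds ratio was 2.04 (adjusted p = 0.0667 over the 4 strings, Fisher's exact test). The 4 strings were picked for high counts at these same member summits, which tilts this comparison toward the members. Its adjustment also leaves out the other strings searched, so no conclusion is drawn from it. Strings that overlap it, such as GCACAGT with 36 against 9, CACAGTG with 36 against 12 and TACAGTG with 35 against 12, stood among the 20 of lowest p without passing the threshold.

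ACAGTGG had a direction. The examples below extend 125 bp on either side of the summit, on the plus strand, to show it. Capitals mark the string where it reads toward the summit, as ACAGTGG on the left side or, from the minus strand, as CCACTGT on the right side. They are norpA (chrX:4324865-4325115), with the string on the right, and NFAT (chrX:13640396-13640646) and for (chr2L:3655690-3655940), with the string on both sides.
norpA: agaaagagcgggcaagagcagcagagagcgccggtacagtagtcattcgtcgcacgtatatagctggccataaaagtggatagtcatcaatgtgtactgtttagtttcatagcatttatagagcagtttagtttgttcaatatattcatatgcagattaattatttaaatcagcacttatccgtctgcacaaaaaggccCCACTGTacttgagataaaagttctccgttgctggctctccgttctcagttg
NFAT: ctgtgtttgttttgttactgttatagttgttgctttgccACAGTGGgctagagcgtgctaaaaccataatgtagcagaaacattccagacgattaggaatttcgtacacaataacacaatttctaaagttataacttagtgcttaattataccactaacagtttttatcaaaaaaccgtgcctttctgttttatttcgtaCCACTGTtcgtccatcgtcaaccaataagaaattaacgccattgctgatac
for: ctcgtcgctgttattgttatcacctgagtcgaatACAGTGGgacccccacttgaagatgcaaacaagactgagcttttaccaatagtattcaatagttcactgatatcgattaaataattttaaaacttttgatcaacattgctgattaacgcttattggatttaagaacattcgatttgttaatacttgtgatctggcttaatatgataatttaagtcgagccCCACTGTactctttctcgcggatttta

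In the band from 25 to 150 bp on either side of the summit, ACAGTGG read toward the summit in 102 members (9.84%, Wilson interval 8.17 to 11.8) and away from it in 30 (2.89%, 2.03 to 4.10), with 3 members in both counts. The 128 occurrences that read toward it had a median distance of 86.5 bp from the summit, with an upper quartile of 106 bp. The pair of bases before it was GC in 30.5% of them. Both the band and the comparison of directions were chosen after the values were seen, so no test is given.

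**Figure D5:**
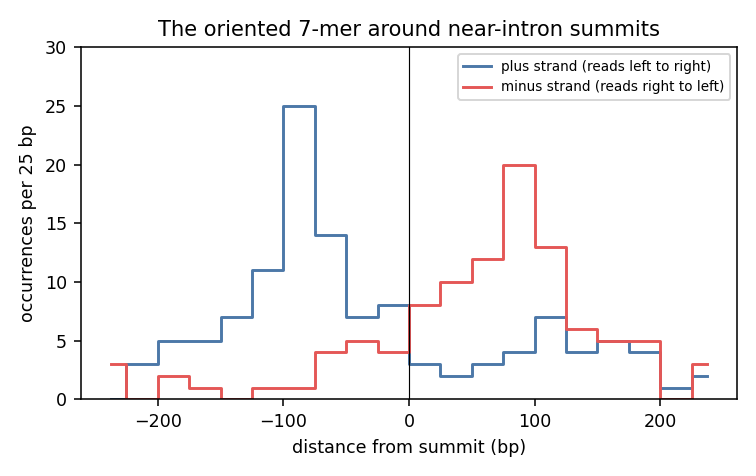
Occurrences per 25 bp of the called string that contains both C and G (vertical) against the distance from the member summits in bp. Plus-strand copies (blue) peak at 25 between 100 and 75 bp left of the summit, and minus-strand copies (red) at 20 between 75 and 100 bp to its right.

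The directed string was most frequent at the strongest members. In the strongest quartile 44 of 259 (17.0%) held it reading toward the summit and 8 reading away, in the second 23 and 7, in the third 19 and 6, and in the weakest 16 of 260 (6.15%) and 9. Among the 25 strongest members 6 held it reading toward the summit, in Trl, norpA, NFAT, for, Csk and zfh1. The 102 members had a median signal of 168.3, and 56 of them (54.9%) were in both replicates' lists, compared with 37.4% of all members. These shares do not compare members of like signal. The strongest quartile, with 94.2% in both lists, held 44 of the 102, and presence in both lists was rarer in each lower quartile. The direction was not particular to the members. It was 68 toward and 14 away of 734 far-intron summits (9.26% and 1.91%), 50 and 10 of 616 intergenic (8.12% and 1.62%) and 247 and 91 of 4414 promoter summits (5.60% and 2.06%). The forkhead string had no such direction in the members, with 54 toward and 55 away.

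Among all 16382 strings of 7 bases seen in these bands, read in their own direction, ACAGTGG had the fifth largest excess of toward over away. Ahead of it stood TACAGTG, with 102 against 20, and the A-rich strings AGAAAAA, with 146 against 55, GAAAAAA, with 148 against 65, and GAGAAAA, with 124 against 41. ACACTGA, with 80 against 16, was also among the first 10.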

How the data were processed

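Sob-eGFP was immunoprecipitated from embryos in 2 biological replicates, after sonication to 200 to 800 bp, per the labels. The authors' peak lists, in dm6 coordinates, were used. Each replicate had a ranked and a thresholded list, and further lists drew on both replicates, all made against a control and compared by the irreproducible discovery rate, per the deposited file lists. Which aligner and which caller made them is not given in the sources used here. The signal of each peak is the authors' deposited value, on a scale that is not stated, without replicate error. Depth is unknown, since the lists give no read counts, and intervals cover counting error only.

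The main list held 7002 peaks, 7001 of them on the 6 main arms. Replicate 1's own list held 4490 and that of replicate 2 held 4626. Gene models were those of Ensembl release 115 (annotation 6.54) without transposable elements, and sequence was RefSeq's release 6, which has dm6 coordinates. Positions count from 1, and distances are negative upstream of a TSS. A summit was a promoter summit within 1000 bp of any TSS. Otherwise it was intronic when inside a gene and in no exon, and near when the closest protein-coding TSS was at most 5000 bp away. The density of a class is its summits per megabase of sequence meeting the same rule. A member was in a replicate's list when the peaks shared at least 1 bp, and its signal in a replicate was that of the strongest ranked peak holding its summit.

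Classes were compared by two-sided Fisher's exact tests (7 comparisons), and 19 motifs and all 8192 7-mers between the 101 bases at a summit and those 500 bp away, on a side drawn with a fixed seed, by exact McNemar tests. P-values were adjusted by Benjamini-Hochberg within each family at 0.05. Scripts were tested on simulated data, and ran in Python 3.11.15 with scipy 1.17.1. The genes named host the 25 strongest members or 4 or more members, or have the highest member signals (up to 4) in a gene list, and other genes were chosen after their values were seen. Of the symbols listed, 3 matched no gene and an older symbol served for 5. The result of 1 gene list is not reported here. The members, lists and tests were chosen with earlier results of these data known. The alternatives were other peak lists, the stronger 50% of peaks, other distances to TSSs, protein-coding TSSs alone, 1 member per gene, windows of 25 or 100 bp, flanks 1000 bp away and stricter overlaps. Flanks in introns and a signal of at least 20 were added after seeing the data.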

Additional observations from a re-analysis of the deposited data

How the results depend on the processing

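Across 17 settings, 227 recomputed values were compared with those reported, and 158 were classed as the same. A ratio or share was so classed when it kept its side of the threshold and, if past it, its direction. A count was so classed when it stayed within a fixed fold of the reported one. The number of members was 691 in the conservative list, 474 in the stronger 50% of peaks, 553 with an exclusion of 2000 bp, and between 608 and 645 without either replicate. The lower share of members than of promoter peaks above the median and in both lists, and the lower G and C at summits, held under every alternative run. For the shares the adjusted p-values reached up to 0.0430 and 0.0167 (Fisher's exact test). For G and C the unadjusted p reached up to 0.000570 (exact sign test). The share of G and C lower at the summit ranged from 55.4% to 74.3% of untied members. Without replicate 2, the odds ratio of a signal above the median was 1.29 against far introns, past the threshold, and 1.28 against intergenic peaks, reversed from 0.965; without either replicate these odds ratios spanned 1.14 to 1.29 and 0.908 to 1.28. The odds ratio for a bound host promoter lost its call with an exclusion of 2000 bp (1.29), near limits of 3000 bp (1.25) or 10000 bp (1.11), and 1 member per gene (1.26).

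The number of called motifs was 6 in the conservative list, 4 in the stronger 50%, 2 with a near limit of 10000 bp or intronic flanks, and 0 with 3000 bp, 1 member per gene or windows of 100 bp, and between 2 and 3 without either replicate. The number of called 7-mers was 22 in the conservative list and with windows of 100 bp, 12 in the stronger 50%, 20 within 10000 bp, 10 with an exclusion of 500 bp and 8 with flanks 1000 bp away. It was 1 with an exclusion of 2000 bp, within 3000 bp, with 1 member per gene or with intronic flanks, 0 with windows of 25 bp, and between 2 and 20 without either replicate. The forkhead string lost its call in 4 of 15 alternatives, AATATTA in 3, ATATTAA in 7, ACAGTGG in 9 and GTAAATA in 10, each with a ratio above 1 throughout. The causes were not tested. No paired analysis was possible because the labels give only 1 group.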
